A study of Mus musculus with 3 samples.

Results

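The vacuolar ATPase (V-ATPase) is described here through 10 of its subunit genes: Atp6v1a, Atp6v1b2, Atp6v1c1, Atp6v1e1 and Atp6v1h of the cytosolic V1 sector, and Atp6v0a1, Atp6v0b, Atp6v0c, Atp6v0d1 and Atp6v0d2 of the membrane V0 sector. They were chosen by symbol and not by a measured value, although earlier results of these data were known. Each matched exactly 1 of the 55536 gene entries in the deposited tables. The libraries hold poly(A) RNA of C57BL/6J bone-marrow-derived macrophages that were exposed to a stimulus at 100 ng/mL for 480 min. The labels name the stimulus in different ways, Lipid A in the sample descriptions and lipoprotein A in the treatment fields. The 3 libraries, called replicates 1, 2 and 3, form the only group, so no untreated macrophages were compared and no value is a response to the stimulus. The labels number them as biological replicates from separate biosamples but list the same donor entry for all 3, and give neither sex nor age. P-values therefore measure only the spread between these samples, which may be technical.

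The V-ATPase is a rotary pump that uses ATP to move protons across membranes. The V1 sector holds the ATP-splitting head, stalks and regulatory subunits, and the V0 sector holds a ring of proteolipids that turns in the membrane and the subunit a that forms the proton path. In macrophages the pump acidifies endosomes, phagosomes and lysosomes, where acid hydrolases digest what the cell takes up, and osteoclasts, which share the macrophage lineage, place it in the plasma membrane to dissolve bone.

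The gene tables held 26589042, 34344922 and 48356527 expected counts in replicates 1, 2 and 3. Levels are TPM, the abundance of a transcript per length and per fixed library total, which can be compared between genes, and are given as mean ± SD over the 3 libraries. All 10 macrophage markers, among them Lyz2, Apoe and Cd68 with the highest and Itgam and Mertk with the lowest mean TPM, were at 1 TPM or more in every library. Markers of other cells were mostly low but did not stay level, and S100a9 and S100a8 reached 237 and 128 TPM in replicate 2. Of 11 neutrophil markers 10 were highest in replicate 2 and Cxcr2 was equal in replicates 2 and 3, with a summed level of 28.0, 428 and 25.2 TPM in replicates 1, 2 and 3. That sum came mostly from S100a9, S100a8 and Ngp, while Cxcr2 and Retnlg had the lowest means, and Elane, Mpo and Ly6g had counts in replicate 2 alone. The 7 dendritic cell markers summed to 6.20, 24.3 and 10.7 TPM, led by Ccr7, Clec9a and Siglech, with Flt3 and Zbtb46 lowest. The 8 B and T cell markers summed to 1.18, 2.46 and 0.61 TPM, with Cd79b, Cd3e and Cd8a highest and Cd3d and Cd3g without counts. The 8 fibroblast and epithelial markers summed to 0.25, 1.61 and 1.44 TPM, from Col3a1, Col1a1 and Col1a2 for the most part, with Krt8, Krt18 and Epcam without counts.

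All 10 subunit genes were detected, meaning 1 TPM or more in every library, against 17.9% of all gene entries. Their mean TPM ran from 59.3 for Atp6v0d2 to 1373 for Atp6v0c, a 23.1-fold span. Every member ranked between the percentiles 83.8 and 99.2 of the 12404 genes with a mean expected count of 10 or more. The median over the members was 170 TPM, beside 8.60 TPM over those genes.

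**Figure D1:**
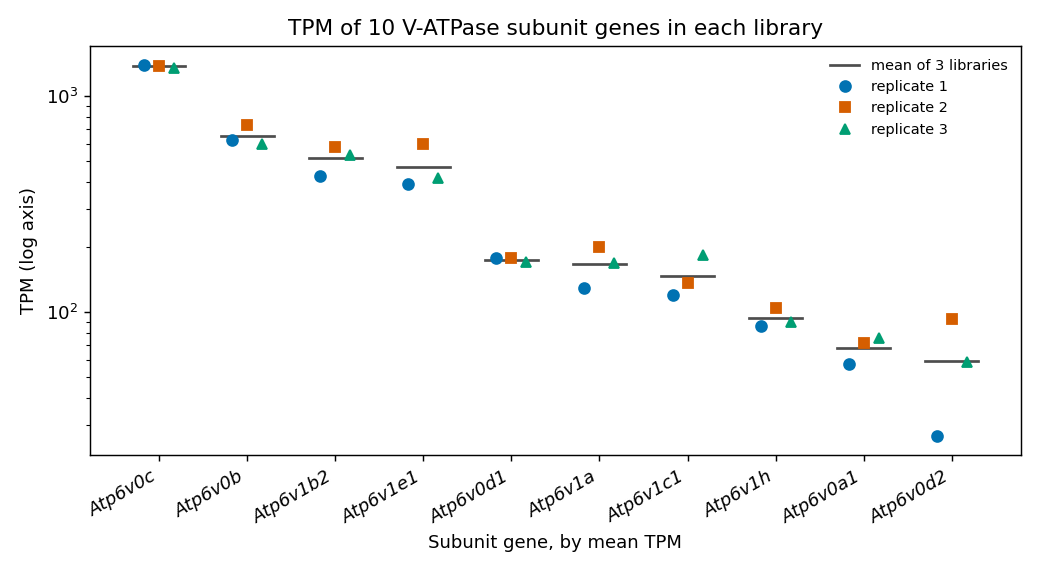
TPM on a log axis for the 10 subunit genes, ordered by their mean. Each symbol is 1 library and each bar the mean of 3 libraries. The symbols of Atp6v0c and Atp6v0d1 nearly coincide, and those of Atp6v0d2 run from 26.7 to 92.7 TPM.

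The head of the V1 sector is built from subunits A and B. Atp6v1a (ENSMUSG00000052459.13, mm10 chr16:44085402-44139705, minus strand) codes for subunit A, which binds and splits ATP, and measured 129, 201 and 168 TPM in replicates 1, 2 and 3. Atp6v1b2 (ENSMUSG00000006273.14, chr8:69088646-69113711, plus strand), for the non-catalytic partner B, measured 426, 580 and 533 TPM. Both genes were lowest in replicate 1 and highest in replicate 2. The 2 proteins alternate around the head, but the RNA of Atp6v1a was below that of Atp6v1b2 in 3 of 3 libraries, with a mean difference of -1.64 ± 0.10 on the log2(TPM + 0.1) scale. A pair counts as apart when the difference has the same sign in every library and its mean exceeds 2 SD, which this pair met. This is a rule of size and not a test, since an exact sign-flip test of 3 libraries cannot give a p below 0.25. The other B gene, Atp6v1b1, known from kidney and inner ear, had no counts in any library.

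The other 3 V1 members were likewise lowest in replicate 1 by TPM. Atp6v1e1 (ENSMUSG00000019210.10, chr6:120794305-120822793, minus strand), for subunit E of the peripheral stalks, measured 391, 599 and 417 TPM. Replicate 2 stood above the other 2 libraries, which lay close together. Its testis paralog Atp6v1e2 had no counts. Atp6v1c1 (ENSMUSG00000022295.8, chr15:38661933-38692446, plus strand), for subunit C, which ties the stalks to the membrane sector and lets go when the pump disassembles, measured 119, 136 and 183 TPM and was the V1 member highest in replicate 3. Its paralog Atp6v1c2 had no counts. Atp6v1h (ENSMUSG00000033793.12, chr1:5070018-5162529, plus strand), for the regulatory subunit H, measured 85.8, 105 and 89.5 TPM and had the smallest range of the 5 V1 members, 1.22-fold.

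The V0 ring is made of proteolipids. Atp6v0c (ENSMUSG00000024121.13, chr17:24163866-24169702, minus strand), for the main ring subunit c, measured 1394, 1378 and 1345 TPM. These 3 values differ by 1.04-fold. Atp6v0b (ENSMUSG00000033379.13, chr4:117884326-117887333, minus strand), for the related ring subunit c'', measured 622, 736 and 596 TPM, with replicate 2 highest. Atp6v0c was above Atp6v0b by 1.08 ± 0.15 on the log2 scale, a pair that counts as apart. The level of Atp6v0c is less certain than its small spread, because 35.2% of the 31-base words of its main transcript also occur in the pseudogenes Atp6v0c-ps1 and Atp6v0c-ps2. Atp6v0c-ps2 was listed at 23.6, 7.91 and 6.41 TPM in the gene tables but at 1.93, 1.31 and 0.28 TPM in a second deposited quantification, made without an alignment file, and Atp6v0c-ps1 was listed at 0 TPM in the gene tables. Atp6v0b shares 4.33% of such words with Gm12841, a gene on the opposite strand that overlaps its exons by 243 bases and was listed at 0 TPM in all 3 libraries. Exon overlaps with opposite-strand genes also touch Atp6v1e1 (32 bases, Slc25a18) and Atp6v1h (127 bases, Rgs20), both with the partner under 1 TPM. Whether counting used the strand is not given in the sources used here, so reads of such partners cannot be told apart.

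Subunit d sits between the ring and the rotor shaft, and both of its genes were expressed. Atp6v0d1 (ENSMUSG00000013160.7, chr8:105524465-105566047, minus strand), the widely expressed form, measured 177, 177 and 170 TPM. Atp6v0d2 (ENSMUSG00000028238.6, chr4:19876841-19922605, minus strand), known for its role in osteoclast fusion and bone resorption and also expressed in macrophages, measured 26.7, 92.7 and 58.6 TPM. The first gene was nearly flat and the second differed between every pair of libraries. As counts, Atp6v0d2 had 1055, 4923 and 4235, which is 39.7 (95% Wilson interval 37.4 to 42.1), 143 (139 to 147) and 87.6 (85.0 to 90.3) CPM (counts at a fixed library total). The intervals, which cover counting error only, do not overlap. The share of Atp6v0d2 in the summed TPM of the 2 d genes was 13.1%, 34.4% and 25.7%, and 12.9%, 33.6% and 24.6% in the second quantification. Atp6v0d1 was higher in 3 of 3 libraries, by 2.73, 0.93 and 1.53 on the log2 scale, but with 1.73 ± 0.91 (mean ± SD) the pair did not meet the rule for being apart.

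Subunit a, which carries the proton path and directs the pump to its membrane, can come from 4 genes. Atp6v0a1 (ENSMUSG00000019302.16, chr11:101009452-101063719, plus strand) measured 57.7, 71.7 and 75.8 TPM, with replicate 1 lowest. Tcirg1, the gene of the a3 form found in lysosomes and in the bone-facing membrane of osteoclasts, measured 528, 411 and 482 TPM, highest where Atp6v0a1 was lowest. Atp6v0a1 was below Tcirg1 by -2.79 ± 0.36 on the log2 scale (6.92-fold) and above Atp6v0a2 by 1.66 ± 0.15. Both pairs count as apart. Atp6v0a4, the kidney form, had no counts. Of the summed TPM of the a genes, Tcirg1 held 87.5%, 80.9% and 83.1%, Atp6v0a1 9.56%, 14.1% and 13.1%, and Atp6v0a2 2.92%, 4.99% and 3.79%.

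**Figure D2:**
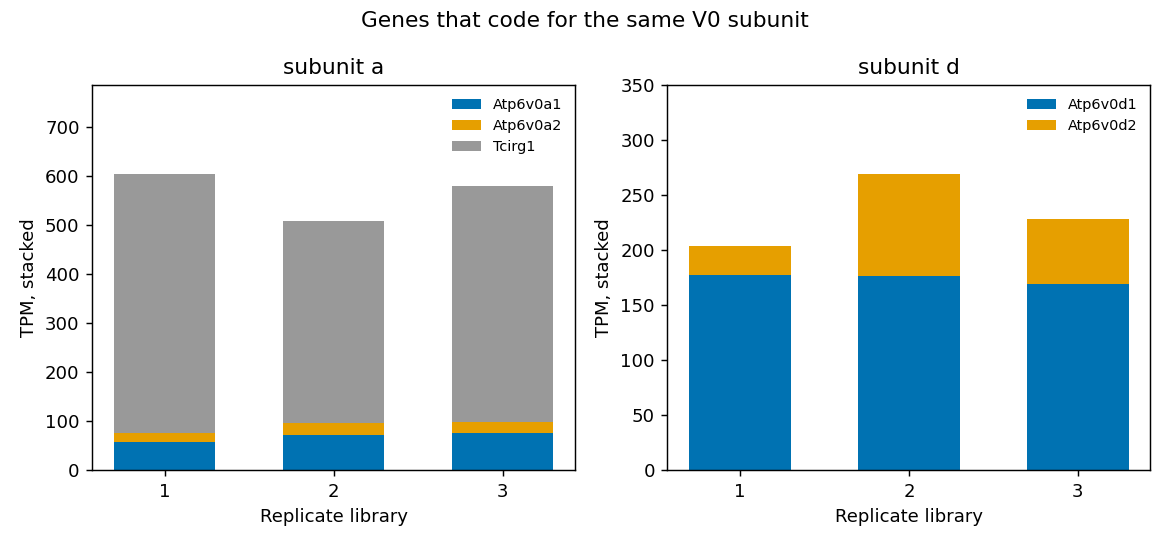
TPM of the genes that code for subunit a (left) and subunit d (right), stacked by library, without the a gene that had no counts. The Atp6v0d1 segments are level at 170 to 177 TPM while the Atp6v0d2 segments differ, and Tcirg1 makes up at least 80.9% of each subunit a bar.

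In the order of mean TPM, 3 of the 9 steps between neighbours met the rule for being apart. These were Atp6v0c over Atp6v0b, Atp6v1e1 over Atp6v0d1 (1.40 ± 0.32 on the log2 scale) and Atp6v1h over Atp6v0a1 (0.45 ± 0.18). The other 6 steps did not meet it, although Atp6v0b was above Atp6v1b2 (0.35 ± 0.19) and Atp6v1c1 above Atp6v1h (0.63 ± 0.35) in 3 of 3 libraries. Atp6v1b2 over Atp6v1e1, Atp6v0d1 over Atp6v1a, Atp6v1a over Atp6v1c1 and Atp6v0a1 over Atp6v0d2 each held in 2 of 3 libraries. Only neighbours were compared, so genes further apart in this order may differ. By sector, the median of the V1 members was 129, 201 and 183 TPM and that of the V0 members 177, 177 and 170 TPM. The V0 median was the value of Atp6v0d1 in every library, and Tcirg1 is not among the V0 members, so the comparison depends on the list. The difference of the medians, V1 minus V0, was -0.46, 0.18 and 0.11 on the log2 scale and changed sign between libraries (mean -0.06 ± 0.35).

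The libraries were then compared gene by gene. A chi-square test of rounded expected counts against TMM-scaled library sizes, with Benjamini-Hochberg adjustment over the 12404 genes, called 10 of 10 members as varying beyond counting error, where it called 70.9% of the genes tested. With 1055 to 43057 expected counts per member and library, small differences pass this test. The weakest call was Atp6v0d1, with an adjusted p of 0.0018 in the chi-square test for a 1.04-fold range of TPM, and the strongest was Atp6v0d2, with an adjusted p of 1.6e-307 for a 3.48-fold range. By size, 1 of 10 members, Atp6v0d2, had a highest TPM at least 2 times its lowest, beside 18.8% of the genes tested. Without replicate 1 the count was 0 of 10. The other 9 ranged from 1.04-fold to 1.56-fold. The coefficient of variation (SD divided by mean) had a median of 14.7% over the members and 18.0% over the genes tested, and ran from 1.82% for Atp6v0c to 55.7% for Atp6v0d2.

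Replicate 2 was the highest library for 6 of 10 members, beside 45.2% of the genes tested, and replicate 1 the lowest for 7 of 10, beside 41.3%. Among the V1 members, replicate 2 was highest for 4 of 5 and replicate 1 lowest for 5 of 5. Among the V0 members, each held for 2 of 5. This describes the listed genes and not the sectors. Of the V1 genes outside the list, Atp6v1d was highest in replicate 1 by TPM but in replicate 3 by TMM-scaled CPM. It was lowest in replicate 2 by both. Atp6v1g1 was highest in replicate 3 and lowest in replicate 2, and Atp6v1f highest in replicate 3 and lowest in replicate 1. The choice of scale moved the counts of the 10 members. With TMM-scaled CPM, 6 members were highest in replicate 2 and 6 lowest in replicate 1, since Atp6v1c1 was then lowest in replicate 2. Over the genes tested these shares were 38.5% and 37.8%. In the second quantification, whose TPM of detected genes sat below that of the gene tables by a median log2 difference of -0.39, -0.08 and -0.24, the counts were 9 and 10, beside 61.7% and 60% of the genes tested that had a value there. After centring each library by that shift they were 7 and 8, beside 43.5% and 39.1%. Summed over the 5 genes, V1 measured 1150, 1621 and 1390 TPM and V0 2278, 2456 and 2245 TPM. Without Atp6v0c the V0 sum was 884, 1077 and 900 TPM. Replicate 2 is the library with the raised neutrophil markers and replicate 1 the one with the fewest counts. The part of either in these differences was not tested, and in bulk RNA fewer cells of a type cannot be told apart from less RNA per cell.

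**Figure D3:**
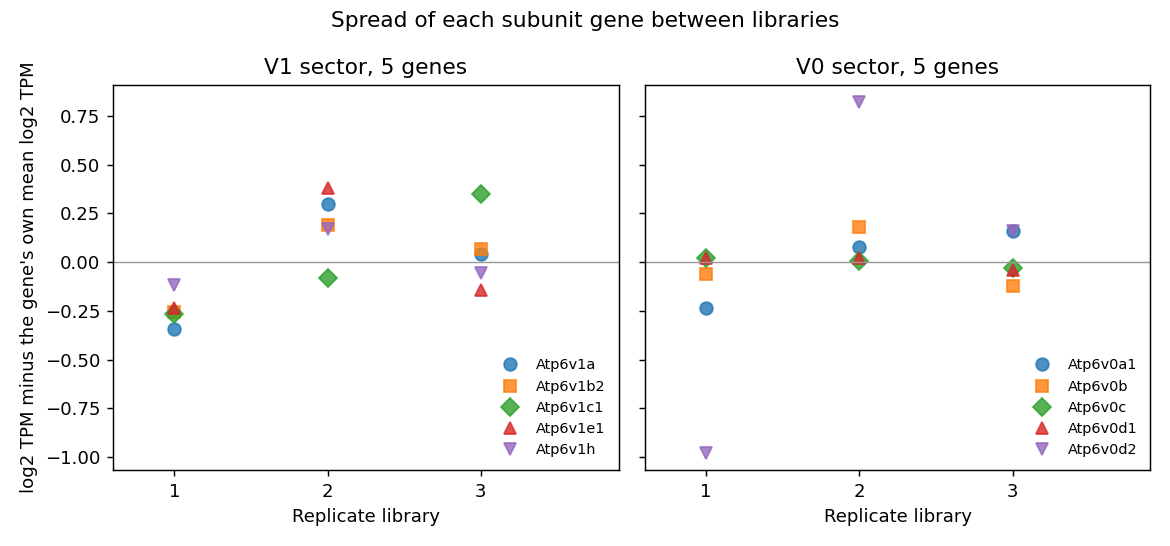
Log2 TPM of each gene minus its own mean log2 TPM in each library, for the 5 V1 genes (left) and the 5 V0 genes (right), with 0 marked by a line. All 5 V1 genes are below 0 in replicate 1, and Atp6v0d2 has the widest range of the 10 genes.

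The genes of the complex outside the 10 completed the picture of which forms the cells used. Of the 15 other subunit and accessory genes, 9 were detected and 5 had no counts (Atp6v0a4, Atp6v1b1, Atp6v1c2, Atp6v1e2 and Atp6v1g3). Of the 9 that were tested, 8 varied beyond counting error, beside 70.9% of all genes tested. None reached a 2-fold range, beside 18.8% of all genes tested. Atp6v1d and Atp6v1f, which form the rotor shaft, measured 325, 222 and 284 TPM and 334, 401 and 423 TPM. Atp6v1g1 of the stalks, at 261, 257 and 282 TPM, held a mean of 99.1% of subunit G, and Atp6v1g2, known from neurons, reached 2.11, 2.23 and 3.27 TPM. In the membrane sector, Atp6v0e measured 284, 312 and 312 TPM and Atp6v0e2 at most 0.03 TPM. The accessory genes Atp6ap1 and Atp6ap2, whose products help assemble the pump, measured 230, 305 and 280 TPM and 127, 135 and 123 TPM. Summed over all 23 subunit genes, the level was 5181, 5707 and 5443 TPM, a coefficient of variation of 4.83%, beside 8.91% for the sum of the 10 members.

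Atp6v0d2 was set beside genes of the osteoclast programme to which it belongs. Of the 10 osteoclast markers 4 were detected, and 6 had a mean count of 10 or more. Replicate 2 was highest for 7 of the 10, beside 45.2% of all genes tested. For Oscar, Ocstamp, Dcstamp and Mmp9 this rests on values under 1 TPM. The 10 markers summed to 127, 262 and 150 TPM. Acp5, the tartrate-resistant acid phosphatase, made up most of that sum at 79.6, 209 and 103 TPM, in the same order of libraries as Atp6v0d2. The ratio of Atp6v0d2 to Acp5 was 0.335, 0.444 and 0.571, so the 2 genes did not keep a fixed proportion. Tnfrsf11a, the RANK receptor, was nearly level at 39.6, 41.1 and 35.0 TPM, and Nfatc1, the main transcription factor of osteoclasts, measured 5.45, 5.32 and 7.24 TPM. Itgb3 and Ctsk, described after their values were seen, measured 0.47, 2.34 and 1.05 TPM and 1.52, 2.87 and 3.61 TPM. Calcr and Oscar, which mark mature osteoclasts, were at 0 to 0.04 TPM. The genes whose levels lay nearest to Atp6v0d2 in all 3 libraries, among 9074 genes with a mean count of 100 or more, were Ccnd1 at 27.7, 85.2 and 74.3 TPM, Tomm20 at 32.0, 70.0 and 59.6 TPM and Odc1 at 32.3, 75.4 and 45.9 TPM. Their root mean square log2 differences from it were 0.21, 0.28 and 0.31.

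**Figure D4:**
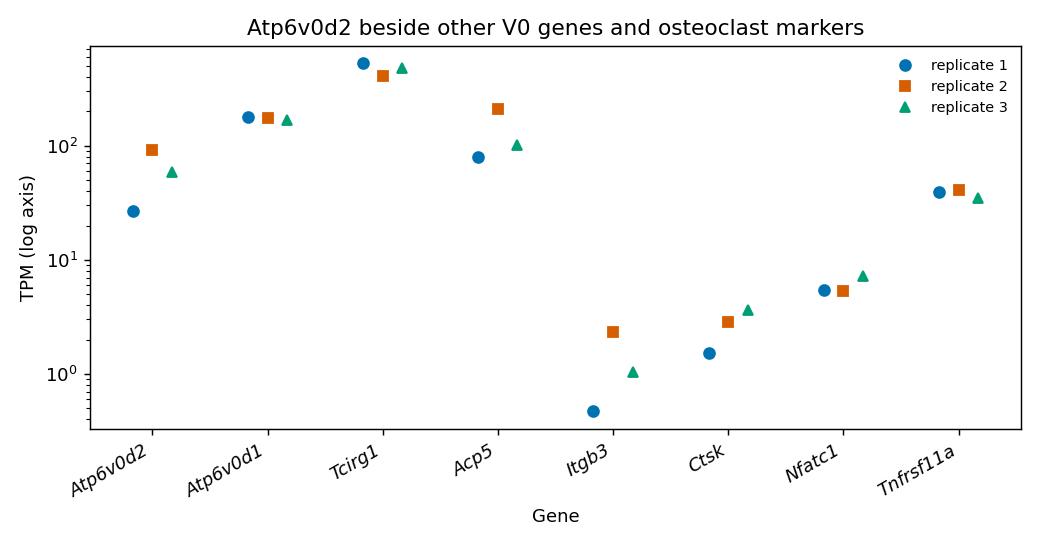
TPM on a log axis for Atp6v0d2, 2 other V0 genes and 5 osteoclast markers, with a symbol for each library. Atp6v0d2, Acp5 and Itgb3 are lowest in replicate 1 and highest in replicate 2, and Tcirg1 is highest in replicate 1.

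At the transcript level, the main transcript of each member was the same in every library for 10 of 10 members, beside 86% of 8812 genes with several transcripts. Both quantifications named the same main transcript for 10 of 10, beside 79.8%. Atp6v0d2-201 held 100% of its gene's TPM, and Atp6v0d1-201, Atp6v1b2-201, Atp6v1e1-201 and Atp6v0c-201 held means of 99.2%, 98.7%, 98.5% and 96.7%. Atp6v0b-201, Atp6v1h-201, Atp6v1c1-201 and Atp6v1a-202 followed with 90.6%, 86.7%, 84.3% and 82.7%. Atp6v0a1-202 had the lowest main share, 64.3%, 61.8% and 60.4%, among 10 annotated transcripts.

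Atp6v1c1 had the largest shift of shares among the members. Its coding transcript Atp6v1c1-201 held 93.7%, 85.6% and 73.5% of the gene's TPM, and Atp6v1c1-206, a short non-coding transcript of 390 bases, held 2.25%, 12.7% and 24.4%. The second quantification gave Atp6v1c1-206 4.89%, 14.3% and 26.4%, the same order. The span of 22.1 percentage points lies at the percentile 83.2 of 8812 genes, whose median span is 9.62 points. In TPM the coding transcript measured 112, 116 and 134 and Atp6v1c1-206 2.69, 17.3 and 44.5, so the higher TPM of Atp6v1c1 in replicate 3 came from both. TPM is per length, so a transcript of 390 bases can hold a large share of TPM with few counts. By TMM-scaled CPM the gene measured 142, 137 and 171, a 1.24-fold range beside 1.53-fold in TPM. The short transcript rests on 6.63, 49.3 and 178 expected counts, beside 3514, 4892 and 7697 for the coding transcript. It skips exon 3 of the 13 exons of Atp6v1c1-201, a coding exon of 68 bases at chr15:38673897-38673964 (mm10, plus strand), and 68 leaves a remainder of 2 on division by 3. The GENCODE annotation tags it as a likely target of nonsense-mediated decay if extended. The sequences below, from the GENCODE transcripts, show the skipped exon in capitals with 20 bases on each side, and then the junction without it.
Atp6v1c1-201: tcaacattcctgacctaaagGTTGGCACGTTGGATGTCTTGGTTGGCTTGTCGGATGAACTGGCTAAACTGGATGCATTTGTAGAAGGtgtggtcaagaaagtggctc
Atp6v1c1-206: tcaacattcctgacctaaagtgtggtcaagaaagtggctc

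The coding transcripts of Atp6v0a1 differ in short stretches whose lengths are multiples of 3. Atp6v0a1-203 begins an exon 21 bases earlier (chr11:101026660-101026680), Atp6v0a1-201 adds an exon of 18 bases (chr11:101049459-101049476), and Atp6v0a1-210 adds another of 18 bases (chr11:101054831-101054848), all within the annotated coding sequence on the plus strand of mm10. The main transcript Atp6v0a1-202 lacks all 3. The stretches are printed in capitals with 20 bases on each side, and the last line is the main transcript across the junction where either 18-base exon would lie.
Atp6v0a1-203: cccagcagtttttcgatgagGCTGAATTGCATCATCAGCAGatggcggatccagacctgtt
Atp6v0a1-201: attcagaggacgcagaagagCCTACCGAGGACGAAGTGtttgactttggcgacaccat
Atp6v0a1-210: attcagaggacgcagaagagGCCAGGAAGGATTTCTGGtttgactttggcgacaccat
Atp6v0a1-202: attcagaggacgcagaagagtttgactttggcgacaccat

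Both 18-base exons sit between the same neighbours, so the forms with either insert are alternatives at 1 position. Atp6v0a1-201 held 0%, 0.07% and 10.7% of the gene's TPM and Atp6v0a1-210 held 10.6%, 14.9% and 4.1%. The share of the first was near 0 in 2 libraries and that of the second was lowest in replicate 3, but the sum of both was 10.6%, 15.0% and 14.8%. The second quantification gave 5.54%, 4.53% and 7.58% for Atp6v0a1-201 and 5.91%, 9.39% and 7.41% for Atp6v0a1-210, so it did not show the same split, and sums of 11.5%, 13.9% and 15.0%. Atp6v0a1-203 held 9.96%, 9.97% and 8.65%, and 16.6%, 22.2% and 17.7% in the second quantification. These transcripts also differ at their ends, so a share does not measure the inclusion of a stretch alone. The non-coding transcripts of Atp6v0a1 held 15.1%, 13.3% and 16.2% together.

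**Figure D5:**
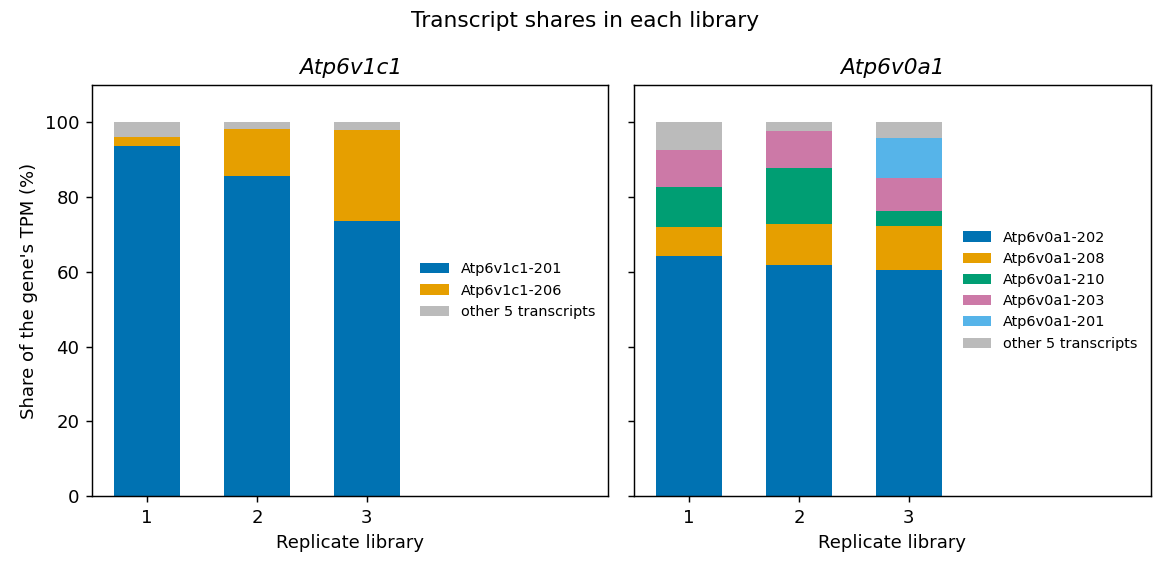
Share of the gene's TPM in percent held by each transcript of Atp6v1c1 (left) and Atp6v0a1 (right) in each library, with the remaining transcripts stacked in grey. Atp6v1c1-206 takes 2.25% to 24.4%, and the main transcript of Atp6v0a1 stays between 60.4% and 64.3%.

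Genes that assemble or regulate the pump were measured beside it. Of 13 listed genes 12 were in the table and 10 were detected, led by Ncoa7, Vma21, an assembly factor of the V0 sector, and Oxr1 at means of 69.1, 45.6 and 27.4 TPM. Atp6ap1l and Tldc2 had no expected counts, but the second quantification gave Tldc2 1.68, 0.41 and 1.98 TPM. Of the 10 tested, 6 varied beyond counting error, a call that 70.9% of all genes tested received. Among the 10, 1, Rogdi, named after its values were seen, reached a 2-fold range at 1.19, 3.27 and 1.63 TPM, beside 18.8% of all genes tested. The MiT/TFE factors, which switch on lysosomal genes, were all detected, with Tfe3 at 63.5, 65.5 and 67.3 TPM, Mitf at 40.4, 30.6 and 31.2, Tfec at 26.8, 15.3 and 18.8 and Tfeb at 10.2, 8.86 and 11.4. All 4 varied beyond counting error and none was highest in replicate 2. The Ragulator and Rag GTPase genes, whose products sense amino acids at the lysosome together with the pump, were detected in 9 of 9 cases. Rragc, Lamtor1 and Lamtor5 led with means of 233, 184 and 183 TPM, Rragd and Slc38a9 were lowest with 2.85 and 8.64 TPM, and 8 of the 9 varied. The 20 lysosomal hydrolases and membrane proteins were all detected and all varied, with Psap, Cd68 and Lamp1 highest (means of 9573, 2617 and 1891 TPM) and Neu1 and Gaa lowest (37.6 and 50.9 TPM). Their median coefficient of variation was 8.67%. Replicate 2 was highest for 7 and replicate 1 lowest for 13 of these 20, beside 45.2% and 41.3% of all genes tested. Of the 20 genes 1, Lipa, the acid lipase, named after its values were seen, reached a 2-fold range at 142, 296 and 216 TPM. Of all genes tested 18.8% reached such a range.

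MiT/TFE factors are known to bind the E-box CACGTG, and its extended form TCACGTGA, near the start of lysosomal genes. RefSeq promoter windows (assembly GRCm38.p6, 250 bases before to 50 after the start) were matched for 6 of 10 members, and not for Atp6v0d2, Atp6v1b2, Atp6v1c1 and Atp6v1h. CACGTG, which reads the same on both strands, was found in the windows of 3 of these 6, Atp6v0b, Atp6v0d1 and Atp6v1a, beside 8.09% of 27025 genes and 7.15% of 32851 windows. It was found in 1 of 13 other subunit and accessory genes and in 3 of 14 lysosomal hydrolase and membrane protein genes. TCACGTGA, which contains it, was found for Atp6v0d1 and Atp6v1a, beside 1.12% of genes and 0.974% of windows. The extended form was found in 1 of the 13 other subunit and accessory genes and in 0 of the 14 lysosomal hydrolase and membrane protein genes. The windows of Atp6v0a1, Atp6v0c and Atp6v1e1 held neither. The stretches around the matches are printed with CACGTG in capitals, on the minus strand, which all 3 genes use. They lie at chr4:117887320-117887391 for Atp6v0b, chr8:105566055-105566093 for Atp6v0d1 and chr16:44139359-44139416 for Atp6v1a.
Atp6v0b: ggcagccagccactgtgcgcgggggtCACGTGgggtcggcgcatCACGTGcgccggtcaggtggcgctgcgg
Atp6v0d1: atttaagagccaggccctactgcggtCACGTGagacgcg
Atp6v1a: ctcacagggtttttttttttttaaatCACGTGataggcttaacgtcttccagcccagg

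Counted from the RefSeq start site, the matches begin at -36 and -18 in Atp6v0b, at -3 in Atp6v0d1 and at -131 in Atp6v1a. The Atp6v1a stretch lies inside the GENCODE span of the gene, which begins further upstream, at 44139705 on the minus strand. The 3 genes did not share a pattern of levels: Atp6v0d1 was flat, Atp6v0b was highest in replicate 2 by 1.24-fold over its lowest library, and Atp6v1a was lowest in replicate 1 by 1.56-fold under its highest. A match in a window describes the sequence and not binding.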

How the data were processed

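RNA levels were taken from tables the authors deposited for 3 libraries of 1 group. Reads were quantified on mm10 with GENCODE M21, per the deposited readmes. The aligner and programs were not given in the sources used here. The gene and transcript tables hold expected counts, TPM and percent values (how a gene's TPM is divided over its transcripts) from a transcriptome alignment, per the file headers. A second set of deposited transcript tables, made without an alignment file, holds estimated counts and TPM, which were summed per gene.

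Levels are mean ± SD of the deposited TPM. Differences between genes are on the log2(TPM + 0.1) scale. Each gene was tested for variation beyond counting error by a chi-square test (2 degrees of freedom) on expected counts rounded to whole numbers, against library totals scaled by TMM from edgeR 4.0.16, over the 12404 genes with a mean count of 10 or more, Benjamini-Hochberg adjusted at 0.05. The test was run on simulated data with known answers first. Library totals exclude entries without a gene identifier. Identifiers stood in for the names of 86 unnamed gene entries. Totals of 26589042, 34344922 and 48356527 limit precision to counting error, and Wilson intervals cover only that. Shared sequence was counted as 31-base words of each main transcript found in transcripts of other genes.

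The 10 members, the 15 gene lists (147 genes), the 8 gene pairs and the tests were chosen with earlier results of these data known. Named are all members, all other subunit genes, the genes of each pair, up to 3 highest and 2 lowest genes of each other list, 3 genes nearest to Atp6v0d2 and Atp6v0c pseudogenes. Some genes of the lists are not reported by name here. Alternatives were pseudocount 1, a threshold of 10 TPM, DESeq2 1.42.0 size factors, no count filter, the second quantification and leaving out each replicate. With 1 group, no comparison between groups and no correlation across samples was made. Software was R 4.3.3 and Python 3.11.15 with scipy 1.17.1, pandas 2.3.3, matplotlib 3.10.9 and numpy 2.4.6.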

Additional observations from a re-analysis of the deposited data

How the results depend on the processing

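All 10 members stayed detected at a threshold of 10 TPM and in the second quantification. Leaving out 1 library cannot lose a gene that is detected in every library. All 10 varied beyond counting error with DESeq2 size factors, without a count filter and in the second quantification. Leaving out 1 library left 9 of 10, with Atp6v0d1 lost without replicate 1, Atp6v1h without replicate 2 and Atp6v1c1 without replicate 3. The number of members with a 2-fold range was 1 with TMM-scaled counts and with the centred second quantification, an alternative added after seeing the data. It was 2 in the second quantification as deposited, which added Atp6v1a. It ranged from 0 to 1 when 1 library was left out, with 0 without replicate 1. Leaving out 1 of 3 libraries cannot move a member mean by 1 SD, so only the second quantification could do so. There 5 of 10 member means moved by more than 1 SD: Atp6v0c to 1092, Atp6v0b to 520.2, Atp6v1b2 to 425.8, Atp6v0d1 to 146.8 and Atp6v1h to 76.86 TPM. The 5 lie below the gene tables' values, as does the median gene there. Of 40 pair differences, 6 moved by more than 1 SD, which leaving out a library again could not do. Among them was Atp6v0a1 minus Atp6v0a2 with 1.41 in the second quantification. The 5 of these that involve a paralog without counts depend on the pseudocount or the quantification by construction. Of the 8 gene pairs 7 were apart with pseudocount 1 and in the second quantification, and Atp6v0d1 with Atp6v0d2 joined them without replicate 1 and without replicate 2, where 8 were. The V1 minus V0 median, which is within its SD of 0, ranged from -0.18 to 0.14 when 1 library was left out. The main transcripts were the same in the second quantification, and leaving out a library could not change that count. The varying, 2-fold and pair calls changed in the cases given above.

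No paired analysis was possible because the libraries form 1 group. Depth limits the short transcripts most, such as Atp6v1c1-206 with 6.63 expected counts in replicate 1. With 3 libraries, no untreated sample and 1 time point, the values describe levels and their spread, and a change with stimulation was not analysed here.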

Other observations

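Lysosomal ion transport genes, whose channels and exchangers work beside the proton pump, were all detected (11 of 11). Clcn7, the chloride-proton exchanger that balances the charge moved by the pump, measured 318, 246 and 312 TPM, above every V1 member except Atp6v1b2 and Atp6v1e1 in mean. Mcoln1, the lysosomal calcium channel, measured 47.3, 47.8 and 50.2 TPM, and Slc9a9, a sodium-proton exchanger, 29.8, 41.1 and 35.3 TPM. Clcn3 and Tpcn1 were lowest with means of 4.59 and 6.17 TPM. The chi-square test with Benjamini-Hochberg adjustment called 8 of the 11 as varying, beside 70.9% of all genes tested. None reached a 2-fold range, beside 18.8% of all genes tested. Of the 11, 7 were lowest in replicate 1, beside 41.3% of all genes tested, and 6 were highest in replicate 2, beside 45.2%.

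Of 12 housekeeping genes, 8 were highest in replicate 2, beside 45.2% of all genes tested, and 7 lowest in replicate 1, beside 41.3%. None of the 12 reached a 2-fold range, beside 18.8% of all genes tested. Their median coefficient of variation was 13.8%, beside 14.7% for the V-ATPase members and 18.0% for the genes tested. Actb had the highest mean, 12008 TPM, and Tbp and Polr2a the lowest, 9.28 and 25.9 TPM. All 10 macrophage markers varied beyond counting error, beside 70.9% of all genes tested, and 3 of 10 were highest in replicate 2.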
